A study of Mus musculus with 4 samples.

Results

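Complement genes of the tendon stroma were followed across the cell classes of the mouse Achilles tendon, the cord that joins the calf muscles to the heel bone. The 7 genes were C3, C4b, C7, C1ra, C1s1, Masp1 and Serping1. They were taken by symbol, each is listed in all 4 matrices, and together they are 7 of the 33696 genes listed. Another 48 genes of the complement system were read beside them. The tissue was read by single-cell RNA sequencing in droplets after digestion with collagenase and DNase. The 4 libraries were an injured and an uninjured control Achilles tendon library from adults, whose labelled age was 6 to 8 weeks, and an injured and a control library from neonates, labelled as postnatal day 3. The labels name mouse as the organism and no engineered allele or drug. They give neither the time from injury to harvest, nor how many mice were used and of which sex, nor whether the stated age of injured mice was reached at injury or at harvest. Each group held 1 library. No difference between groups has a replicate check, no test was run, and every interval is a 95% interval that covers counting error only.

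Complement is a set of plasma and tissue proteins that mark surfaces for removal and can pierce membranes. In the classical pathway the recognition molecule C1q carries the proteases C1r and C1s, which cut C4 and C2. In the lectin pathway mannose-binding lectin, ficolins or collectins carry the MASP proteases, some of which cut C4, C2 or both. Both pathways lead to a convertase that cuts C3, the alternative pathway amplifies that step through factor B and factor D, and the terminal proteins beginning with C5b and including C7 assemble the membrane attack complex. C1 inhibitor, encoded by Serping1, inactivates C1r, C1s and some of the MASP proteases. The liver makes most plasma complement, while fibroblasts and macrophages are among the cells that make components locally.

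The upstream windows show the letters in front of the members that the reference table holds. RefSeq gave 250 bases before the annotated start for 4 of the 7 members, on GRCm38.p6, an older build than the GRCm39 of the counts. Each is printed 5′ to 3′ on the strand of its gene, ending at the base before the start. The C3 window is chr17:57228137-57228386 on the minus strand, the C7 window chr15:5063774-5064023 on the minus strand, the C1ra window chr6:124512371-124512620 on the plus strand and the C1s1 window chr6:124542360-124542609 on the minus strand. Capitals mark matches to 5 searched motifs.
C3: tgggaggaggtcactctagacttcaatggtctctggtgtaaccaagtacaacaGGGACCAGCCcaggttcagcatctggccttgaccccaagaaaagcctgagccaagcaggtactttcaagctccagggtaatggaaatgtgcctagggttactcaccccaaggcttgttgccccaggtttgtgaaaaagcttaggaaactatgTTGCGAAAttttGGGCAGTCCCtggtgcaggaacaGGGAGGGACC
C7: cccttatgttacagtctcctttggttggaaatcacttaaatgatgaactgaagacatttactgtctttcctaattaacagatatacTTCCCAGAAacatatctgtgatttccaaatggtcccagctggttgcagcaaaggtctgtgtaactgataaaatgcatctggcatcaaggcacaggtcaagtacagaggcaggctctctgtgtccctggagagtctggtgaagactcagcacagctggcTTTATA
C1ra: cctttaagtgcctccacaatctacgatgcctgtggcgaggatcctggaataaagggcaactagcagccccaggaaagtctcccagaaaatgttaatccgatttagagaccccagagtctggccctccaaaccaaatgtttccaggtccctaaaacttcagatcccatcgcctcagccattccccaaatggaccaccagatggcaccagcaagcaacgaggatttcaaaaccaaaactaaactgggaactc
C1s1: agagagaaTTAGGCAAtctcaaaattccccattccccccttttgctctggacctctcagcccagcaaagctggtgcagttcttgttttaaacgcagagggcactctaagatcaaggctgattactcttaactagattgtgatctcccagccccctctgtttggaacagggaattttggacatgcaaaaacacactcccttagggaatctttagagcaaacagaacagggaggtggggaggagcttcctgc
The motifs were searched on both strands. They were GGGANNNNCC for NF-kB, present in 17.6% of 32851 windows of this length, TTGCNNAA for C/EBP in 9.56%, TTCNNNGAA for STAT proteins in 7.02%, GAAANNGAAA for interferon-response factors in 2.98% and TATAAA in 12.4%. The C3 window held 3 matches to the NF-kB letters, at 197 to 188, 33 to 24 and 10 to 1 bases before the start, and 1 match to the C/EBP letters, at 45 to 38 bases; no 2 of these overlap. The C7 window held 1 match to the STAT letters, at 164 to 156 bases, and the TATAAA letters on the opposite strand at 6 to 1 bases. The C1s1 window printed, at the start listed earliest, held 1 match to the C/EBP letters, at 242 to 235 bases. The window of the other listed C1s1 start, chr6:124542322-124542571, held no C/EBP match and 1 match to the NF-kB letters, at 35 to 26 bases, and the C1ra window held none of the 5 motifs. A match is a description of the letters and not a bound site.

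Cells were sorted into classes by how many listed marker genes had a UMI, a molecule counted once through its barcode, and no member is a marker. The classes comprised a fibroblast lineage, which is any cell with at least 6 of 9 fibroblast markers such as Col1a1, Dcn and Pdgfra and of no other lineage, and mural, endothelial, glial, myogenic, chondrocyte and immune cells. The fibroblast lineage held 1857 adult injury cells, 3356 adult control cells, 7763 neonate injury cells and 5339 neonate control cells, with median depths of 19637, 12096, 6310.0 and 10918 UMIs. Gates within it picked tenocytes by Tnmd or by Angptl7 and Chad, fibroblasts by Pi16 and Dpp4, Inmt, Dlk1, Prlr or Lrrc15 and Cthrc1, sheath cells by C1qtnf3 and Matn4, perineural-like cells by Cldn1 and Hhip, and joint-lining cells by Prg4. A cell could pass several gates, and 9.98% to 36.7% of lineage cells passed at least 2. Levels are given as CPM, the UMIs of a gene scaled to 1e+06 UMIs of its class, in classes of at least 50 cells. They are not compared between genes.

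The 4 matrices held 68644322 to 128626912 UMIs, the cells kept numbered 4440, 5792, 12941 and 9521 in adult injury, adult control, neonate injury and neonate control, and pairs of libraries shared 3 to 49 cell barcodes. Tenocyte markers of the Tnmd list, the check of the labelled tissue, summed to 1819.5, 5928, 2058 and 2125 CPM in lineage cells of the same order. The makeup of the lineage differed between the libraries, which bears on every level averaged over it. The Lrrc15/Cthrc1 gate held 1177 of the 1857 adult injury cells and 5 of the 3356 adult control cells. The Inmt gate held 2 and 156 cells in adult injury and adult control, the Angptl7/Chad gate 2 and 368, the Tnmd gate 292 and 1465. The Dlk1 gate held 2084 neonate injury and 3645 neonate control cells. Injured adult tendon thus came with cells of one gate that its control barely had, and lacked others. Xist without a Y-linked UMI was found in 90.7% of adult injury, 96.5% of adult control, 76.5% of neonate injury and 0.0187% of neonate control lineage cells. The control libraries of the 2 ages therefore differed in sex transcripts as well as age, and age and sex cannot be told apart between them. Immune markers summed to 33.5, 4.68, 10.9 and 8.94 CPM in lineage cells of adult injury, adult control, neonate injury and neonate control, with 0 of the 8 markers at 0; their part in the results was not tested.

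All 7 members were detected mainly in fibroblast-lineage cells. These cells were 41.8%, 57.9%, 60.0% and 56.1% of the cells of adult injury, adult control, neonate injury and neonate control, and they held 71.4% to 98.8% of the C7 UMIs, 82.5% to 89.9% of the C4b UMIs, 85.2% to 91.4% of the C1ra UMIs, 79.4% to 87.3% of the C1s1 UMIs, 83.2% to 91.4% of the Masp1 UMIs and 81.8% to 91.3% of the Serping1 UMIs, as the stacked bars show. C3 was the most divided: the lineage held 82.8% of its UMIs in adult injury, 96.8% in adult control, 76.5% in neonate injury and 58% in neonate control. By level rather than share, the lineage was the highest of the lineage classes in 14 of the 28 combinations of member and library. Macrophages held 9.83% of the C3 UMIs in adult injury and 19.98% in neonate injury, and neutrophils 18.6% in neonate control. Mural cells, the pericytes and smooth muscle of vessels, held 9.03% and 12.5% of the C1s1 UMIs in adult injury and adult control and 7.005% and 14.3% in neonate injury and neonate control. Lymphoid, mast and erythroid cells served as the measure of free RNA: after every cell was thinned to 2000 UMIs, C4b and C7 were found in 0 such cells of any library, which allows shares of up to 1.86% to 5.96% by the exact binomial interval, and Serping1 in 5.33%, 8.33%, 1.33% and 1.02% of adult injury, adult control, neonate injury and neonate control cells.

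**Figure D1:**
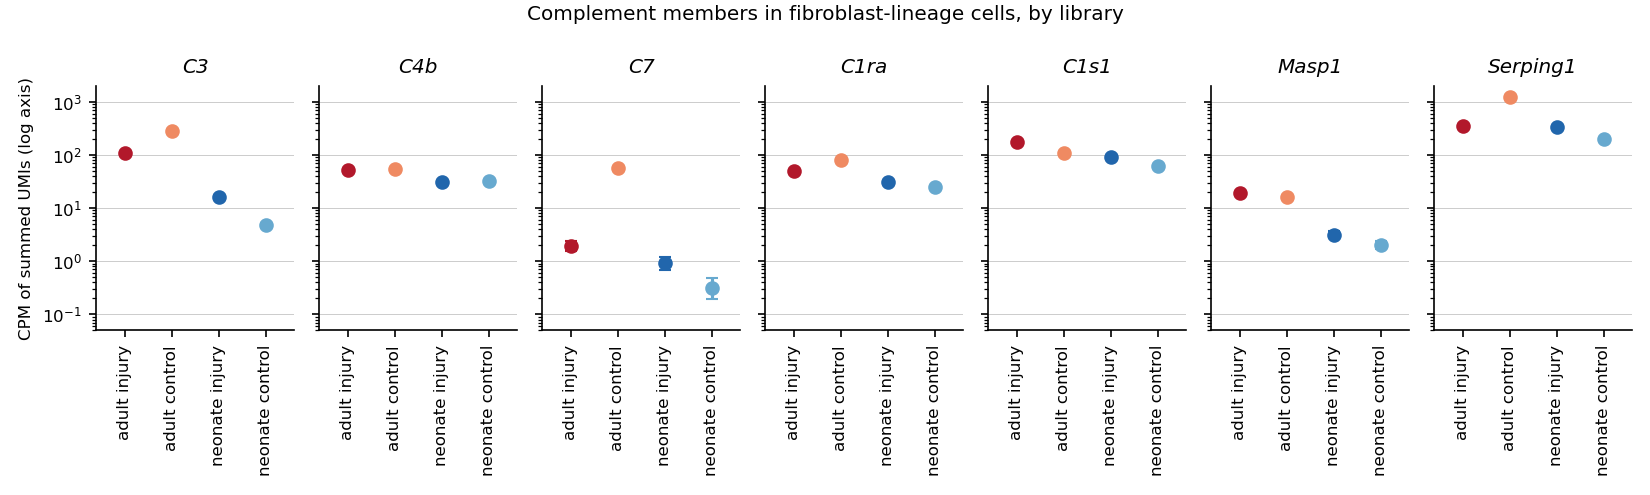
Level of each of the 7 genes in fibroblast-lineage cells (CPM, log axis) in adult injury, adult control, neonate injury and neonate control, 1 point per library with its 95% counting interval. C3, C7, C1ra and Serping1 are highest in adult control, whereas C1s1 and Masp1 are highest in adult injury.

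Among the proteases of the classical pathway, C1ra encodes C1r, which activates C1s. In the fibroblast lineage C1ra measured 49.96 CPM (47.8 to 52.1) in adult injury and 81.5 CPM (78.9 to 84.3) in adult control, 31.3 CPM (29.8 to 32.8) in neonate injury and 24.6 CPM (23.3 to 25.8) in neonate control. It was highest in adult control and lowest in neonate control, with no overlap of intervals between any pair of libraries. After thinning, 10.9%, 14.8%, 6.02% and 4.7% of these cells had a C1ra UMI, against at most 0.508% of the lymphoid, mast and erythroid cells of any library, whose median depth was 6445, 5390.5, 3313 and 7858.5 UMIs. Within adult control, C1ra ran from 22 CPM in Angptl7/Chad and 37.9 CPM in Tnmd tenocytes to 117 CPM in Pi16/Dpp4 and 287 CPM in Inmt fibroblasts. Mural cells had 55.8 and 47 CPM in adult injury and adult control and 35 and 23.3 CPM in neonate injury and neonate control. Glia of adult control had 31.1 CPM (15.5 to 55.7). C1ra was thus found in fibroblasts, mural cells and adult control glia, and endothelial cells and macrophages had at most 11.2 and 5.94 CPM in any library.

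C1s1 encodes C1s, the protease that cuts C4 and C2. Its level in the fibroblast lineage was 176 CPM (172 to 179.8) in adult injury and 108 CPM (105 to 111) in adult control, 89.7 CPM (87.2 to 92.3) in neonate injury and 61 CPM (59.1 to 63) in neonate control. Unlike C1ra, it was higher in the injured than in the control library at both ages, by 1.63-fold in adults and 1.47-fold in neonates. The share of thinned cells with a UMI was 27.8%, 17.3%, 14.9% and 11.1% in the same order of libraries. Mural cells had 322 CPM (300.4 to 345) in adult injury, 262 CPM (243 to 281) in adult control, 178 CPM (161 to 197) in neonate injury and 110.2 CPM (102 to 119) in neonate control, in each library above the lineage as a whole. In Tnmd tenocytes C1s1 measured 93.6 CPM in adult injury and 20.5 CPM in adult control, a 4.57-fold higher level, and 10.4 CPM in neonate injury and 16 CPM in neonate control. Tenocytes of the 2 ages therefore stood on opposite sides of their controls; that difference was not tested. In the sheath gate the adult injury level was 176 CPM and the adult control level 17.9 CPM, and the Inmt fibroblasts of adult control had the highest value of any class, 486 CPM (453 to 520.1). Macrophages had 12.1, 2.36, 2.13 and 1.61 CPM, which in adult injury was below the 14.8 CPM of the lymphoid, mast and erythroid cells and is read as background there.

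C1ra and C1s1 lie beside each other on chromosome 6, next to their near copies C1rb and C1s2 and to C1rl. Of the 90-base windows of the C1ra transcript, 36.5% are identical to C1rb, and 11.2% in the last 500 bases; for C1s1 and C1s2 the shares are 10.4% and 2.68%. Over all classes C1rb reached at most 0.585 CPM and C1s2 at most 0.910 CPM, so few reads were assigned to either copy. Across 62 combinations of class and library, the levels of C1ra and C1s1 had the highest correlation of any member pair, at r = 0.90 for log2(CPM + 5); points share libraries, and gates share cells. By the same measure the genes most like C1ra were Slit3 (r = 0.92), Cygb (0.92) and C1s1, and those most like C1s1 were Fgf7 (0.90), C1ra and Cygb (0.89). C1s1 and C7 had the lowest correlation among member pairs, 0.36.

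Masp1 encodes proteases of the lectin pathway, MASP-1 and, by alternative splicing, MASP-3, which the counts per gene do not separate. It was measured at 18.9 CPM (17.6 to 20.2) in adult injury and 16.1 CPM (14.9 to 17.3) in adult control, 3.16 CPM (2.7 to 3.67) in neonate injury and 2.05 CPM (1.71 to 2.44) in neonate control. Adults had the higher values in both states: the adult control over neonate control fold was 7.81 and the adult injury over neonate injury fold 5.96. Few cells had a Masp1 UMI after thinning, 3.17% and 3.29% in adult injury and adult control and 0.388% and 0.321% in neonate injury and neonate control. Lymphoid, mast and erythroid cells of neonate injury and neonate control had 0 UMIs, which allows up to 10.1 and 1.83 CPM and shares of 4.8% and 1.86%. The lineage level of neonate injury lay under its limit, and the interval of neonate control held its limit. Neonatal lineage Masp1 thus cannot be set apart from background. In adult control the level ran from 3.66 CPM in sheath cells, 5.84 CPM in lining cells and 9.47 CPM in Tnmd tenocytes to 34 CPM in Inmt fibroblasts and 35.2 CPM in lineage cells that passed no gate. In neonate injury the highest gates were Prlr fibroblasts with 9.64 CPM and Lrrc15/Cthrc1 fibroblasts with 8.02 CPM, whose intervals overlapped. Both levels lay under the 10.1 CPM allowed as background there. Endothelial cells, which line vessels, had 7.34 and 5.94 CPM in adult injury and adult control and 0.681 and 0.831 CPM in neonate injury and neonate control, and lymphoid, mast and erythroid cells of adult injury had 4.94 CPM (1.02 to 14.4), an interval that holds both adult values. Genes closest to Masp1 in pattern were Mmp3 (r = 0.80), Hhipl1 (0.79) and Sod3 (0.77), again over 62 points.

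C4b encodes the mouse complement component C4 that classical and lectin proteases cut. In the fibroblast lineage it differed least of the members between injury and control: 51.2 CPM (49.1 to 53.4) in adult injury, 53.8 CPM (51.6 to 56) in adult control, 31.1 CPM (29.6 to 32.6) in neonate injury and 32.2 CPM (30.8 to 33.6) in neonate control. Intervals of injury and control overlapped at both ages, and the thinned shares were 8.5%, 6.1%, 5.03% and 4.98%. Within the gates it was not even. Pi16/Dpp4 fibroblasts had 139.6 CPM (132 to 148) in adult injury and 84.6 CPM (79.4 to 89.9) in adult control, and 125 CPM (116 to 134) in neonate injury and 21.8 CPM (19.1 to 24.7) in neonate control, the injured library being higher at each age. In Tnmd tenocytes the values were 23.3 CPM (19.99 to 27) in adult injury and 9.56 CPM (8.27 to 11) in adult control, and 2.9 CPM (2.17 to 3.81) in neonate injury and 12.6 CPM (10.7 to 14.8) in neonate control. Tenocyte C4b was therefore higher in the injured adult library and lower in the injured neonate library than in their controls.

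Inmt fibroblasts and glia, the Schwann and related cells of nerve, had the highest C4b levels of adult control, 253 CPM (230.2 to 279) and 215 CPM (169 to 269), with overlapping intervals. Glia of neonate injury and neonate control had 22.3 and 3.85 CPM. Mural cells had 22 CPM in adult injury, from 56 UMIs, and 2.51 CPM in adult control, from 7 UMIs. Macrophage C4b was 23.2 CPM (20.5 to 26.2) in adult injury and 63.3 CPM (53 to 74.9) in adult control, and 23.2 and 15.5 CPM in neonate injury and neonate control. Macrophages were thus a class in which C4b was lower in the injured adult library. The near copy C4a shares 18.9% of the 90-base windows of the C4b transcript, and 20.2% in its last 500 bases, and reached at most 1.06 CPM in any class, so C4b counts may miss reads of shared windows. The genes nearest to C4b in pattern were Zfp385a (r = 0.76), Rnase4 (0.75) and Cfb (0.74).

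C3 is the component on which the pathways converge. Its fibroblast-lineage level was 109.8 CPM (107 to 113) in adult injury and 278 CPM (273 to 283) in adult control, 16.4 CPM (15.3 to 17.5) in neonate injury and 4.77 CPM (4.25 to 5.35) in neonate control. The 4 libraries were fully apart, with adults above neonates in both states, and injury below control in adults but above it in neonates. A C3 UMI was found in 13.6% (12% to 15.3%), 24.6% (23.1% to 26.1%), 2.14% (1.82% to 2.49%) and 0.736% (0.524% to 1.005%) of thinned cells in that order, against 1.33% of lymphoid, mast and erythroid cells in adult injury and 0 in the other libraries. In neonate control the lineage share lay under the 1.86% that 0 of 197 such cells allows, so the share cannot set C3 apart from background there. By CPM the lineage interval of neonate control lay above the 1.83 CPM that the 0 UMIs of those cells allow.

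Adult C3 followed the gates. In adult control it was 809.6 CPM (767 to 853) in Inmt fibroblasts, 474 CPM (462 to 486) in Pi16/Dpp4 fibroblasts, 184 CPM in Angptl7/Chad tenocytes, 143 CPM in Tnmd tenocytes, 141 CPM in sheath cells and 83.1 CPM in lining cells. Tnmd tenocytes and sheath cells did not differ beyond their intervals, while the 2 fibroblast gates each stood above both tenocyte gates. In adult injury the level was lower in each gate measured in both libraries. It was 240.4 CPM in Pi16/Dpp4 fibroblasts, 91.6 CPM in Tnmd tenocytes and 91.4 CPM in sheath cells. Prlr fibroblasts had 141 CPM and Lrrc15/Cthrc1 fibroblasts 61.4 CPM in adult injury, and both gates had too few adult control cells to compare. Neonatal C3 was highest, within the lineage, in 1 gate of the injured library: Pi16/Dpp4 fibroblasts had 86.3 CPM (79.1 to 94.1) in neonate injury and 5.31 CPM (4.04 to 6.85) in neonate control, 16.1-fold higher. Tnmd tenocytes had 2.01 and 1.81 CPM in neonate injury and neonate control, with overlapping intervals. Pi16/Dpp4 cells were 816 of the 7763 lineage cells of neonate injury and held 58.9% of its lineage C3 UMIs.

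Outside the stroma C3 was found in myeloid cells and, in adult control, in glia, which had 59.4 CPM (36.8 to 90.8) and a C3 UMI in 9.52% (3.58% to 19.6%) of thinned cells. Neutrophils, short-lived phagocytes, had 286 CPM (232 to 348) in adult injury and 227 CPM (184 to 277) in neonate control, from 111 and 90 cells; the other libraries held 4 each. Macrophages had 47.2 CPM (43.4 to 51.4) in adult injury and 8.03 CPM (4.68 to 12.9) in adult control, and 34.9 CPM (30.6 to 39.8) in neonate injury and 13.4 CPM (9.94 to 17.7) in neonate control. Macrophage C3 was thus higher in the injured library at both ages, 5.72-fold in adults and 2.59-fold in neonates, whereas fibroblast-lineage C3 was lower with injury in adults. In neonate control, where the lineage had 4.77 CPM, neutrophils had the highest C3 of any class. Endothelial cells had 26.1 and 12.2 CPM in adult injury and adult control and 1.02 CPM in neonate injury and no UMI in neonate control. Lymphoid, mast and erythroid cells had 8.24 and 14 CPM in adult injury and adult control and 0 in both neonate libraries, and the adult control values of endothelial cells and macrophages did not exceed that background. The genes nearest to C3 in pattern, Mgst1 (r = 0.77), Ifi205 (0.77) and Mmp3 (0.76), were less like it than the nearest genes of C7, C1ra or Serping1 were to those.

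C7, a terminal component that anchors the forming membrane attack complex in the membrane, was highest in Pi16/Dpp4 and Inmt fibroblasts of adult control. The fibroblast lineage had 1.95 CPM (1.55 to 2.42) in adult injury and 56.3 CPM (54.1 to 58.6) in adult control, 0.911 CPM (0.674 to 1.2) in neonate injury and 0.318 CPM (0.194 to 0.491) in neonate control, the last 2 from 49 and 20 UMIs. Adult control stood far above the other 3 libraries. Pi16/Dpp4 fibroblasts had 179 CPM (171 to 187) and Inmt fibroblasts 155 CPM (136 to 174) in adult control, with overlapping intervals, and the Pi16/Dpp4 gate held 87.3% of the C7 UMIs of that library's lineage. Lower values in adult control were 23 CPM in lining cells, 22 CPM in sheath cells, 20.02 CPM in Angptl7/Chad tenocytes and 1.42 CPM in Tnmd tenocytes. These came from few cells, 9 of 139, 7 of 146, 8 of 368 and 19 of 1465 in that order. In the Pi16/Dpp4 gate itself C7 was 7.51 CPM (5.75 to 9.65) in adult injury, 5.16 CPM (3.5 to 7.32) in neonate injury and 0.27 CPM (0.0557 to 0.789) in neonate control, so the other 3 libraries stayed low within the gate too. Thinned shares in the lineage were 0.567%, 5.01%, 0.187% and 0.0566%. Mural cells had at most 2.3 CPM in any library and 0 in adult injury, and lymphoid, mast and erythroid cells had 0 in all 4.

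Plcxd3 (r = 0.94), Inmt (0.83) and Myoc (0.81) were the genes most like C7 over the 62 points; Inmt is the marker of a gate, and 1 library gives all the high points. C6, the terminal component whose gene lies near C7 on chromosome 15, stayed under 3 CPM in every class, as did Hc, which encodes C5, and C8a and C8b. C9 reached 23.9 CPM at most. Of these terminal genes C7 alone reached 50 CPM in a class, and it did so in adult control alone.

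Serping1 encodes C1 inhibitor, the serpin that shuts off C1r, C1s and some of the MASP proteases. It measured 353 CPM (348 to 359) in adult injury and 1209.8 CPM (1199.5 to 1220.2) in adult control, 333 CPM (328 to 338) in neonate injury and 199.8 CPM (196 to 203) in neonate control. In this average over the lineage adult control was highest and neonate control lowest. The 2 injured libraries were close to each other with a fold of 1.06, though not within every gate. Thinned shares were 42%, 72.6%, 40.2% and 28%, well above the 8.33% of lymphoid, mast and erythroid cells of adult control, the library with the highest background. In adult control the gates ran from 661 CPM in Angptl7/Chad and 995 CPM in Tnmd tenocytes through 1185 CPM in lining and 1340.0 CPM in sheath cells to 1604 CPM in Pi16/Dpp4 and 1962 CPM in Inmt fibroblasts. In neonate injury and neonate control the highest value was that of the Cldn1/Hhip perineural-like cells, 921 and 453 CPM. Serping1 was thus broad in the stroma of all 4 libraries, tenocytes included.

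Mural Serping1 was 470.2 CPM (444 to 498) in adult injury and 475 CPM (450.1 to 502) in adult control, with overlapping intervals, and 347 and 237 CPM in neonate injury and neonate control. Tnmd tenocytes, by contrast, had 321 CPM (308 to 334) in adult injury and 995 CPM (981 to 1008) in adult control. The drop seen in adult stroma was therefore not found in mural cells of the same libraries. Myogenic cells of adult control had 616 CPM. Neutrophils of adult injury had 144 CPM, from 50 UMIs in 9 of 111 cells. Their thinned share, 7.14% (2.36% to 15.9%), overlapped the 5.33% (1.47% to 13.1%) of lymphoid, mast and erythroid cells of that library. Macrophages had 25.7 and 15.6 CPM in adult injury and adult control, against 16.5 (7.9 to 30.3) and 163 CPM in lymphoid, mast and erythroid cells. Macrophage Serping1 lay within that background in adult injury and below it in adult control. It was not read as expression in either library. Acadsb (r = 0.92), Nbl1 (0.90) and C1ra (0.90) were nearest to it in pattern.

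**Figure D2:**
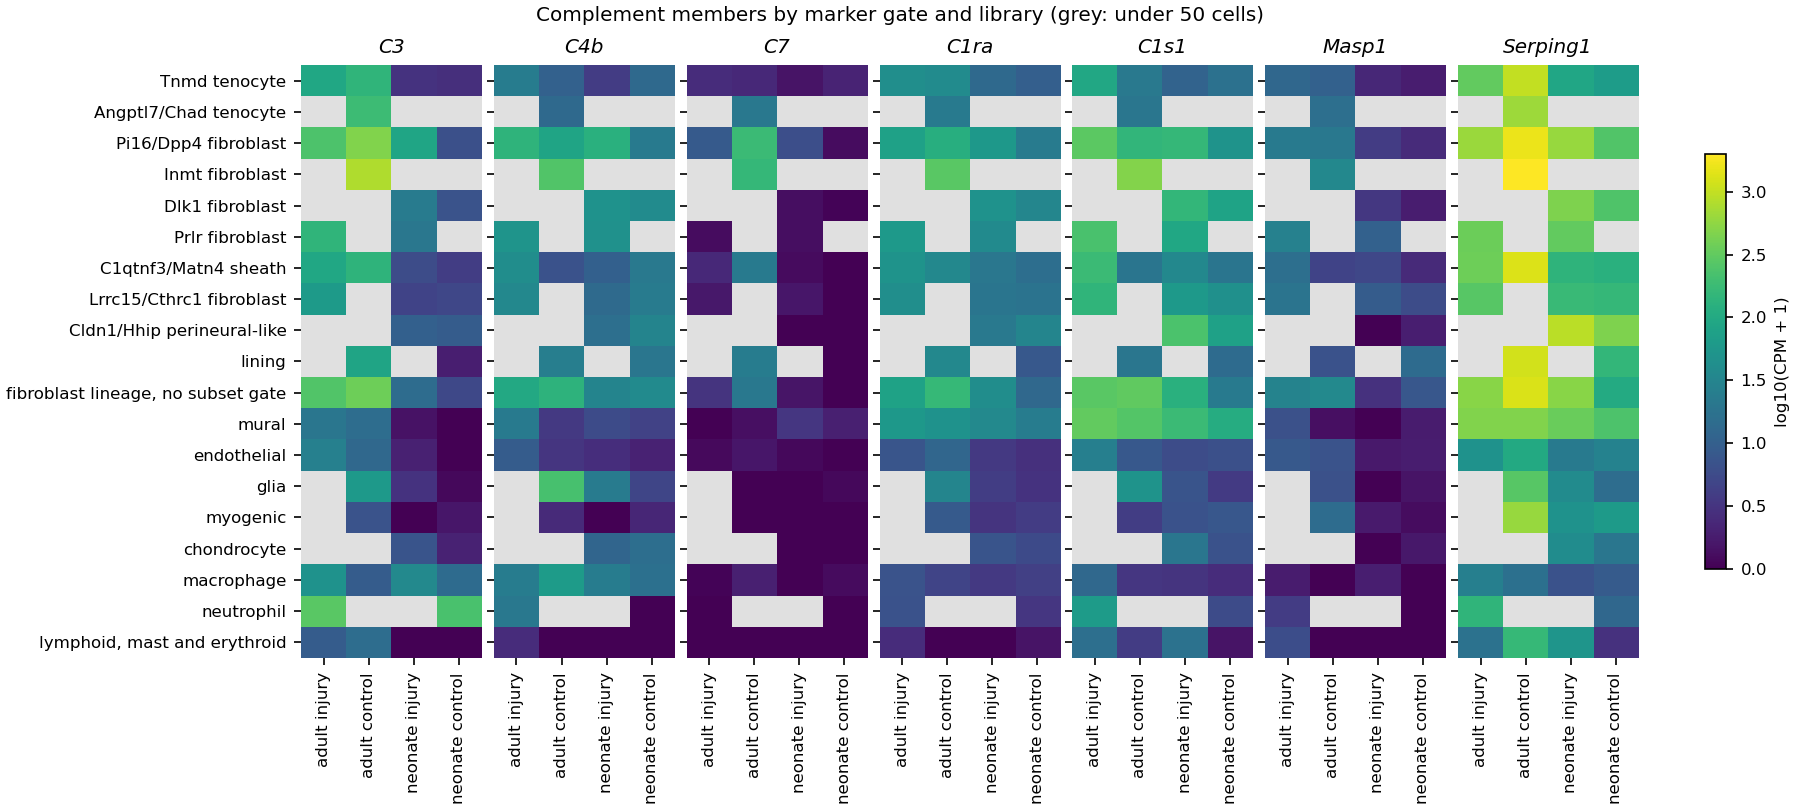
Level of the 7 genes (log10 of CPM + 1, colour) in 19 classes (rows) of the 4 libraries (columns within each panel); grey marks classes under 50 cells. Inmt and Pi16/Dpp4 fibroblasts of adult control carry the highest C7, neutrophils are the highest class for C3 in neonate control, and mural cells exceed the fibroblast lineage for C1s1 in every library.

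Between uninjured tendons, the members were mostly higher in adults. Of the 7 members, 5 were at least 2-fold higher in adult control than in neonate control and none at least 2-fold lower, against 11.7% of the 16172 genes with at least 50 UMIs over the 2 libraries higher and 17.8% lower. The members' median log2 ratio was 2.60 and that of all genes -0.13. The largest log2 ratios were 7.43 (6.84 to 8.18) for C7 and 5.86 (5.70 to 6.03) for C3, a 58.1-fold difference in level. Both were scarce in neonate control. Masp1 stood at 2.97 (2.70 to 3.25), Serping1 at 2.60 (2.57 to 2.63) and C1ra at 1.73 (1.65 to 1.82). C1s1 with 0.82 (0.76 to 0.88) and C4b with 0.74 (0.65 to 0.83) were higher in adults by less than 2-fold. The members with the widest age gap were thus C7 and C3, and age cannot be told apart from sex in it.

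The gap was also present within gates. In Tnmd tenocytes 4 of the 6 members with at least 50 UMIs were at least 2-fold higher in adult control, against 12.4% of genes, led by C3 with 6.27 (5.70 to 6.98) and Serping1 with 3.91 (3.81 to 4.02); C4b had -0.40 (-0.71 to -0.09). In Pi16/Dpp4 fibroblasts 7 of 7 were higher, against 12.3% of genes, with C3 at 6.47 (6.11 to 6.87), Masp1 at 3.65 (2.98 to 4.50) and C4b at 1.95 (1.75 to 2.17). C7 in this gate had 2142 UMIs in adult control and 3 in neonate control, a log2 ratio of 9.15 (7.82 to 11.65). In the sheath gate 4 of 6 were higher and 1 lower, C4b with -1.77 (-2.69 to -1.01), against 7.01% and 15.7% of genes. C7 entered that count through adult control alone, with 60 UMIs against 0 in neonate control. C4b thus lay above its neonatal level in Pi16/Dpp4 fibroblasts and below it in tenocytes and sheath cells. In lining cells 4 of 6 members were higher, against 7.32% of genes. C3 and C7 reached 50 UMIs there only through adult control, with 256 and 71 UMIs against 1 and 0 in neonate control. Masp1, left out with 18 and 15 UMIs, had -1.20 (-2.26 to -0.10). Mural cells had 3 of 3 members higher, against 9.91%, with C1ra at 1.01 (0.66 to 1.36), C1s1 at 1.25 (1.09 to 1.40) and Serping1 at 1.01 (0.90 to 1.11). The C1ra and Serping1 ratios lay at the 2-fold line, with intervals that reached below it. Lineage cells of no gate had 7 of 7 higher, against 10.7%, and glia 2 of 2, against 15.3%, where C4b reached 5.78 (5.11 to 6.54). In the cells of no gate, too, C7 entered through adult control alone, with 119 UMIs against 0.

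In adults, injury went with less C3, C7 and Serping1 in the fibroblast lineage and more C1s1. At least 2-fold lower were 3 of the 7 members, against 15% of 15355 genes, and none was at least 2-fold higher, against 16.6%. The members' median log2 ratio was -0.71 and that of all genes 0.03. The members thus lay mostly on the lower side. C7 was 28.8-fold lower, with a log2 ratio of -4.85 (-5.19 to -4.54); Serping1 had -1.78 (-1.80 to -1.75) and C3 -1.34 (-1.39 to -1.29). C1ra with -0.71 (-0.79 to -0.63) and C1s1 with 0.71 (0.65 to 0.76) lay within 2-fold on opposite sides of 0, Masp1 had 0.23 (0.08 to 0.38), and the C4b interval, -0.07 (-0.16 to 0.01), included 0. Of the proteases that the lower inhibitor blocks, C1s1 was thus higher and C1ra lower. With the gates weighted equally C4b, at 1.02, and C1s1, at 1.59, were at least 2-fold higher. C3 came to -0.98 when each cell was thinned to 2000 UMIs and to -0.84 with that weighting, short of 2-fold in both.

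Within gates the injury pattern of adults was not the same for every member. Tnmd tenocytes had C1s1 at 2.19 (2.02 to 2.37) and C4b at 1.29 (0.98 to 1.59) on the higher side and Serping1 at -1.63 (-1.69 to -1.57) on the lower, which made 2 higher and 1 lower of 6, against 15% and 10.8% of genes. C3 stood at -0.65 (-0.77 to -0.53) there. Tenocytes of injured adult tendon thus had more C1s1 and C4b RNA and less Serping1 RNA. In Pi16/Dpp4 fibroblasts 2 of 7 members were lower, C7 with -4.56 (-4.96 to -4.21) and Serping1 with -1.34 (-1.39 to -1.30), and none higher, against 10.4% and 11.4%. C3 at -0.98 (-1.05 to -0.90) and C1s1 at 0.99 (0.90 to 1.08) fell just short of 2-fold in opposite directions. Serping1 was thus lower in injury within each of these gates, as it was over the lineage. The sheath gate had 3 members higher and 2 lower of 7, against 22% and 8.62% of genes, with C1s1 at 3.28, C4b at 2.74 and Masp1 at 1.98 on the higher side and C7 at -3.93 and Serping1 at -1.84 on the lower. Lineage cells of no gate had 0 higher and 3 lower of 7, against 11.2% and 9.74%, and mural cells 1 of 5 higher, against 17.3%. The mural member was C4b, with 3.04 (1.99 to 4.51).

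In neonates, injury went with more C3, and with more C7 by a ratio that rests on few UMIs. C7 had 49 and 20 lineage UMIs in neonate injury and neonate control. Its levels, 0.911 and 0.318 CPM, lay under the 10.1 and 1.83 CPM that 0 UMIs in lymphoid, mast and erythroid cells allow. At least 2-fold higher were 2 of the 7 members in the lineage, against 8.87% of 16544 genes, and none was at least 2-fold lower, against 11.9%. The members' median log2 ratio was 0.62 and that of all genes -0.06. The log2 ratios were 1.78 (1.59 to 1.97) for C3 and 1.5 (0.74 to 2.35) for C7; Serping1 had 0.74 (0.70 to 0.77), Masp1 0.62 (0.28 to 0.96), C1s1 0.56 (0.50 to 0.62) and C1ra 0.35 (0.25 to 0.45). C4b, with -0.05 (-0.14 to 0.05), again had an interval that included 0. Every other member thus had an interval above 0, though Masp1, like C7, was not set apart from background in neonates. Among lineage cells in which Y-linked genes but not Xist had UMIs, 1124 of neonate injury and 4648 of neonate control, C3 was at 3.47, C4b at 1.19, C1ra at 0.82, C1s1 at 1.06 and Serping1 at 1.24, and Masp1 changed sign to -0.57. The C3, C4b, C1ra, C1s1 and Serping1 ratios were thus higher among these cells than over the whole lineage.

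The neonatal difference was found in some gates and not in others. In Pi16/Dpp4 fibroblasts all 5 members with at least 50 UMIs were at least 2-fold higher in the injured library, against 6.78% of genes. C3 had 4.01 (3.63 to 4.44), C4b 2.52 (2.31 to 2.73), C1s1 1.66 (1.51 to 1.82), C1ra 1.33 (1.09 to 1.57) and Serping1 1.26 (1.19 to 1.33). C7 with 31 and 3 UMIs in neonate injury and neonate control, and Masp1 with 0.89 (-0.17 to 1.95), did not reach 50 UMIs. Lineage cells that passed no gate had 4 of 6 members higher and 1 lower, against 8.94% and 12.3% of genes. There C1s1 was 125 and 21.9 CPM in neonate injury and neonate control, a log2 ratio of 2.51 (2.26 to 2.77), Serping1 had 2.30 (2.18 to 2.42), C1ra 1.72 (1.37 to 2.09), C3 1.68 (1.10 to 2.35) and Masp1 -1.76 (-2.59 to -1.01). For C1s1 and Serping1 these ratios lay above those of Pi16/Dpp4 fibroblasts, with no overlap of intervals, and the C1ra intervals overlapped. Tnmd tenocytes showed 1 of 5 members lower, C4b with -2.11 (-2.60 to -1.66), and none higher, against 12.7% and 7.56%. C1s1 was at -0.62 (-0.92 to -0.33) there. C4b and C1s1 therefore lay above the control in Pi16/Dpp4 fibroblasts and below it in tenocytes of the same injured library. The sheath gate had 1 of 6 higher and 1 lower, against 7.08% and 11%. Dlk1 fibroblasts had 2 of 6 members higher, against 8.93%, Lrrc15/Cthrc1 fibroblasts 0 of 6, against 8.23%, mural cells 0 of 3, against 6.26%, and glia 2 of 2, against 7.27%.

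**Figure D3:**
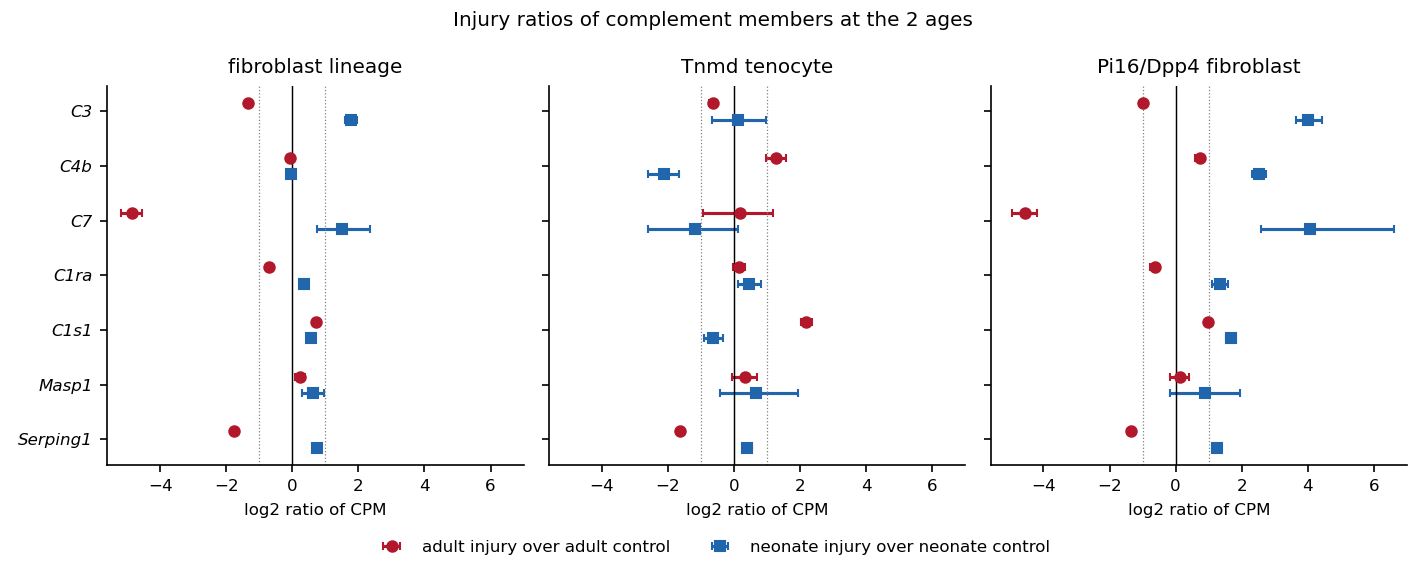
Log2 ratio of injury over control for each of the 7 genes in the fibroblast lineage, Tnmd tenocytes and Pi16/Dpp4 fibroblasts, with circles for adults, squares for neonates and 95% counting intervals; dotted lines mark a 2-fold difference. In the lineage and the Pi16/Dpp4 gate C3, C7 and Serping1 are below 0 in adults and above 0 in neonates.

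Between the injured libraries, adults had at least 2-fold higher levels of 3 of the 7 members, against 7.76% of 15794 genes, and lower levels of none, against 9.98%. The members' median log2 ratio was 0.97 and that of all genes 0.04. These were C3 with 2.74 (2.64 to 2.85), Masp1 with 2.57 (2.34 to 2.83) and C7 with 1.09 (0.57 to 1.64). C1s1 had 0.97 (0.92 to 1.02), C4b 0.72 (0.63 to 0.81), C1ra 0.68 (0.58 to 0.77) and Serping1 0.09 (0.05 to 0.12). The count was 5 when each cell's CPM had equal weight. Serping1, which was 6.06-fold higher in adult than in neonate controls, thus differed little between the injured libraries when averaged over the lineage. Its fold, adult over neonate injury, was 3.67 in Tnmd tenocytes, 2.72 in sheath cells and 1.59 in Lrrc15/Cthrc1 fibroblasts. In Prlr fibroblasts, Pi16/Dpp4 fibroblasts and lineage cells of no gate it was 1.15, 1.04 and 1.01. By gate, 6 of 6 members were higher in adult injury in Tnmd tenocytes, against 9.15% of genes, 6 of 6 in the sheath gate, against 8.96%, 5 of 6 in Lrrc15/Cthrc1 fibroblasts, against 6.73%, and 2 of 7 in Pi16/Dpp4 fibroblasts, against 6.71%. Lineage cells of no gate had 4 of 6 higher, against 7.9%. Outside the lineage, the count was 1 of 4 in mural cells, against 4.78%. Endothelial cells and macrophages are given no counts in any comparison, since several of their levels did not exceed those of lymphoid, mast and erythroid cells.

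Members were also counted in single cells, each thinned to 2000 UMIs. In the fibroblast lineage, 27.7% (25.6% to 29.8%) of adult injury, 38.7% (37.1% to 40.4%) of adult control, 16.2% (15.4% to 17.1%) of neonate injury and 9.27% (8.5% to 10.1%) of neonate control cells had UMIs of at least 2 members. Pi16/Dpp4 fibroblasts had 51.6% (46.1% to 57.1%), 59.3% (55.7% to 62.8%), 34.9% (31.6% to 38.3%) and 9.52% (7.55% to 11.8%), and Tnmd tenocytes 16.6% (12.5% to 21.3%), 22.2% (20.1% to 24.4%), 1.35% (0.913% to 1.92%) and 1.56% (0.913% to 2.49%) in the same order. Several members in one cell were thus commoner in the Pi16/Dpp4 gate than in the lineage as a whole in the injured libraries and in adult control, and in neonate control the gate did not stand above the lineage. Inmt fibroblasts of adult control had a higher share still, 83.2% (76.4% to 88.7%). Mural cells had 44.7% (36% to 53.6%), 35.3% (30.3% to 40.6%), 21.5% (17.4% to 26.1%) and 10.5% (8.19% to 13.2%), macrophages at most 1.5% (0.89% to 2.36%) and lymphoid, mast and erythroid cells at most 1.33% (0.0338% to 7.21%). Each of these shares counts cells with UMIs at a fixed depth, not cells that express the genes.

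Among the other 48 complement genes, 24 reached 50 CPM in a class of at least 50 cells. Counts in the fibroblast lineage are of genes at least 2-fold different among those with at least 50 UMIs. The share of all genes is given beside each. In adult control over neonate control 11 of 26 were higher and 5 lower, against 11.7% and 17.8%. In adult injury over adult control 11 of 27 were higher and 8 lower, against 16.6% and 15%. In neonate injury over neonate control 4 of 28 were higher and 3 lower, against 8.87% and 11.9%. In adult injury over neonate injury 10 of 29 were higher and 3 lower, against 7.76% and 9.98%. Regulators were among the genes that differed most between adult injury and adult control. Clu, clusterin, which binds terminal complexes, had 20.9 and 1319 CPM in adult injury and adult control and 18 and 15.9 CPM in neonate injury and neonate control. Clu thus stood out in adult control, as C7 did, but its highest class there was the Angptl7/Chad tenocytes, with 4746 CPM, and not the Pi16/Dpp4 fibroblasts. Cd55, which dissolves convertases on membranes, had 106 and 462 CPM in adult injury and adult control and 127 and 155 CPM in neonate injury and neonate control, with 1298 CPM in Pi16/Dpp4 fibroblasts of adult control. Cr1l, also called Crry in mouse, had 37.2 and 105 CPM in adult injury and adult control. Adult injury over adult control log2 ratios were -5.98 (-6.08 to -5.89) for Clu, -2.12 (-2.17 to -2.07) for Cd55 and -1.50 (-1.59 to -1.42) for Cr1l, so these inhibitors were lower with injury alongside Serping1. Not every regulator was lower: Cd59a, given under the other observations, had nearly the same level in both adult libraries. On the higher side were myeloid receptor genes, Itgam with 5.25 (4.14 to 7.02), C3ar1 with 3.28 (2.50 to 4.27) and C5ar1 with 3.27 (2.46 to 4.32). The immune markers given above also had their highest sum in adult injury lineage cells, and their part in these ratios was not tested.

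Of the activating components, Cfb, factor B of the alternative convertase, had 44.4 CPM in adult injury and 26.5 CPM in adult control, and 15.5 and 11.1 CPM in neonate injury and neonate control. The C1q chains, which the C1r and C1s proteases need as carrier, were genes of macrophages: C1qa had 1405 and 3589 CPM there in adult injury and adult control and 1785 and 2878.5 CPM in neonate injury and neonate control. In the lineage C1qa was 9.92, 1.88, 2.6 and 2.1 CPM in the same order. The parts of the C1 complex were therefore split, with C1q in macrophages and C1ra and C1s1 mainly in fibroblasts and mural cells. Receptors of the C3 and C5 fragments were myeloid, with C3ar1 at 649 CPM in neonate injury macrophages and C5ar1 at 1070.5 CPM in adult injury neutrophils, against at most 2.99 and 2.75 CPM in the fibroblast lineage of any library. Cfd, the gene of factor D, had 32 UMIs over all libraries and classes.

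**Figure D4:**
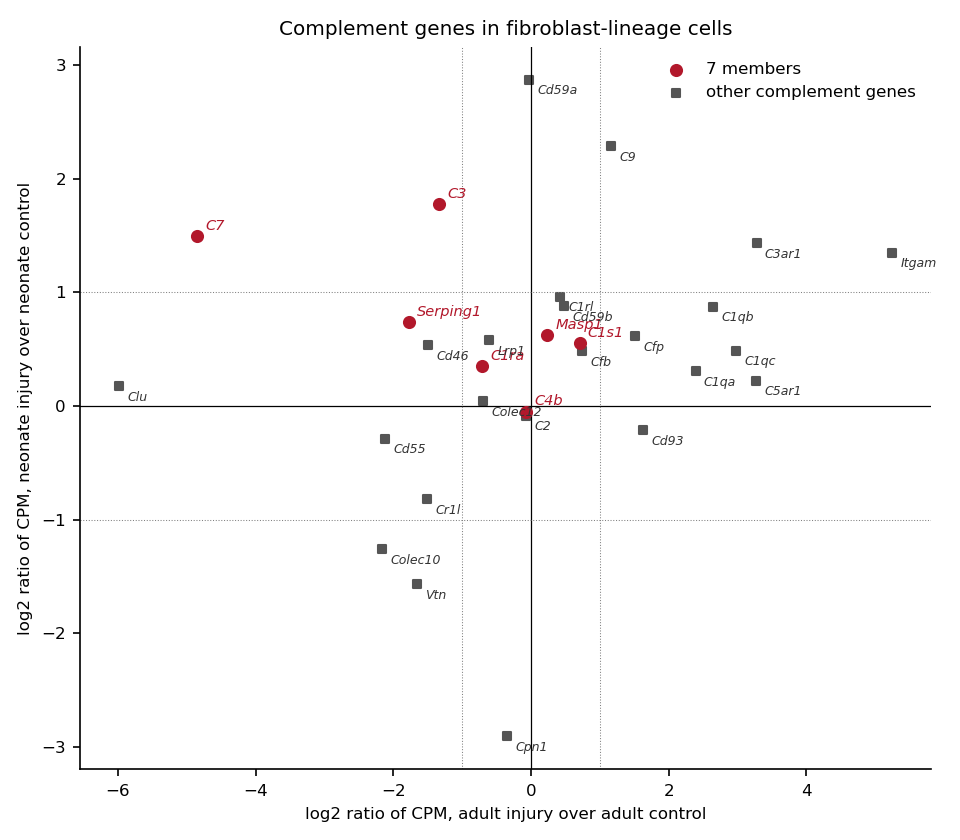
Log2 ratio of injury over control in fibroblast-lineage cells of adults (horizontal axis) and neonates (vertical axis), 1 point per gene, for the 7 genes and 23 other complement genes. Clu, C7 and Serping1 lie to the left, below 0 in adults; the 2 axes come from separate pairs of libraries.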

How the data were processed

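Each library's deposited matrix holds the count of UMIs per gene and barcode, which the authors produced in Cell Ranger 8.0.1, per the file headers. The submitters' processing notes name GRCm39 as the build. A barcode was retained if it had 500 or more genes, 1000 or more UMIs and no more than 15% mitochondrial UMIs. Likely doublets were then dropped by Scrublet score (scanpy 1.11.5), 0.8% being taken for each 1000 barcodes of the library, which was 185, 321, 1944 and 908 barcodes in adult injury, adult control, neonate injury and neonate control. Classes were set by counts of distinct markers with a UMI: at least 6 of 9 for the fibroblast lineage, 3 or 4 for other lineages and 2 to 4 for gates within the lineage. The markers were listed, but these thresholds were set after the data were seen; 1 listed gene is absent from the files, and 26 symbols are listed more than once, the earliest entry being used.

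The UMIs of a gene were summed over a class, and CPM, exact Poisson intervals, exact binomial shares and log2 ratios with 0.5 counts added, with exact binomial intervals, were computed with numpy 2.4.6, pandas 2.3.3 and scipy 1.17.1. For shares each cell was thinned to 2000 UMIs and shallower cells were left out. With 1 library per group no test was run; a gene is counted as different at 2-fold or more, among genes with at least 50 UMIs over both libraries. The steps were checked on simulated data. The members, the complement list and the comparisons were chosen with earlier results of these data known. All 7 members are named, of the other complement genes those reaching 50 CPM in a class of at least 50 cells, and for each member the 3 genes with the highest correlation of log2(CPM + 5); near copies are given with their values, and C6, Hc, C8a, C8b, C9 and Cfd were named outside the rule, after their values were seen. A gene of the complement list counts in its totals and is not reported here. Alternatives for filters, doublets, gates, scaling, depth, near copies and sex transcripts were tried.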

Additional observations from a re-analysis of the deposited data

Results flagged for a closer look

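In the following results the injured library lay above its control at one age and below it at the other. Each value is the adult log2 ratio of injury over control minus the neonate one, with a 95% interval for counting error; none of these differences was tested, since each group held 1 library. In the fibroblast lineage the differences were -3.12 (-3.31 to -2.92) for C3, -6.34 (-7.15 to -5.53) for C7, -1.06 (-1.18 to -0.93) for C1ra and -2.51 (-2.55 to -2.47) for Serping1, all lower with injury in adults and higher in neonates. Neonatal lineage C7 rested on 49 and 20 UMIs in neonate injury and neonate control. In Pi16/Dpp4 fibroblasts they were -4.99 (-5.39 to -4.60) for C3, -8.62 (-10.25 to -6.98) for C7, -1.96 (-2.23 to -1.69) for C1ra and -2.60 (-2.68 to -2.52) for Serping1, in the same directions, where C7 had 3 UMIs in neonate control. In Tnmd tenocytes Serping1 differed by -2.04 (-2.17 to -1.90), again lower with injury in adults, whereas C4b with 3.40 (2.86 to 3.94) and C1s1 with 2.82 (2.48 to 3.16) were higher with injury in adults and lower in neonates. C4b had the same directions in the sheath gate, with 3.90 (3.07 to 4.72), and the opposite ones in macrophages, with -2.02 (-2.55 to -1.50). C4b thus went one way in tenocytes and sheath cells and the other way in macrophages.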

How the results depend on the processing

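Over the planned and added alternatives, 42 recomputed counts of members stayed within 1.5 times the reported count and 3 did not. Of the recomputed log2 ratios of members, 178 were classed as the same and 106 as moved. No log2 ratio at or past 2-fold changed sign. The neonate injury over neonate control count was 2, but 1 with cells thinned to 2000 UMIs and 4 among cells in which Y-linked genes but not Xist had UMIs. The adult injury over neonate injury count was 3, but 5 with the mean of each cell's CPM. Of 129 alternatives for ratios of at least 2-fold, 125 kept direction and stayed past 2-fold; the exceptions were C3 in adult injury over adult control, at -0.98 when thinned and -0.84 with gates weighted equally, and C7 in adult injury over neonate injury, at 0.93 without cells of no gate and 0.75 with gates weighted equally. The equal weighting was chosen after seeing the data; it gave 6, 4, 3 and 3 members in adult control over neonate control, adult injury over adult control, neonate injury over neonate control and adult injury over neonate injury. In adult injury over adult control these 4 were 2 higher, C4b at 1.02 and C1s1 at 1.59, and 2 lower, C7 at -4.26 and Serping1 at -1.57, against 0 higher and 3 lower as reported. The cause of these moves was not tested. No paired analysis was possible because each group held 1 library, for the same reason no replicate could be left out, and the depth limits C7 in neonates, with 49 and 20 lineage UMIs in neonate injury and neonate control.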

Other observations

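Macrophages also had UMIs of other complement genes. Vsig4, a macrophage receptor for C3 fragments, had 6.2 CPM in adult injury macrophages and 319.7 CPM in adult control macrophages, and 6.53 and 11.8 CPM in neonate injury and neonate control macrophages. Vsig4 was thus lower in the injured library at each age. Cfb in macrophages was 31.7 and 21.7 CPM in adult injury and adult control and 84.6 and 22 CPM in neonate injury and neonate control. In adult injury over adult control, 23 other complement genes had at least 50 UMIs in macrophages. Their median log2 ratio was -0.10, against -0.05 for all genes. In neonate injury over neonate control 22 did, with a median of 0.05, against -0.07 for all genes.

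Colec12 and Lrp1, a collectin and an endocytic receptor, were broad in the stroma. Colec12 had 178 and 287 CPM in lineage cells of adult injury and adult control and 192 and 186 CPM in those of neonate injury and neonate control, and Lrp1 had 585 and 888 CPM and 398 and 267 CPM in the same libraries. Cd59a, which blocks the membrane attack complex, had 9.26 and 9.45 CPM in adult injury and adult control and 13.9 and 1.89 CPM in neonate injury and neonate control, so neonate control alone was low.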
